A study of Mus musculus with 16 samples.

Results

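The transcripts followed here are those of 10 genes of extracellular matrix turnover, namely the matrix metalloproteinases Mmp2, Mmp3, Mmp9, Mmp13 and Mmp14, the tissue inhibitors of metalloproteinases Timp1, Timp2 and Timp3, and the lysyl oxidases Lox and Loxl2. They were taken as a list of names, grouped by role, that had been drawn up with earlier results of these data known, from the 45777 genes of the deposited table, and all 10 had counts above 0 in every tumor. Cells of the B16F10 line, a melanoma of the C57BL/6 strain, were injected under the skin of 6-week-old C57BL/6J mice (lean, labelled B6) or ob/ob mice, which make no functional leptin and become obese. Tumors were collected before chemotherapy (ctrl) or after a course of etoposide (ETS), which poisons a topoisomerase and so leaves breaks in DNA, injected into the peritoneum on 5 occasions at 20 mg/kg. Each of the 4 groups (B6_ctrl, B6_ETS, ob_ob_ctrl and ob_ob_ETS) held 4 tumors, 16 in all. The ob mutation was carried by the host and not by the injected cells. Whole tumors also hold host cells, but the host genotype was not checked from the counts per gene used here. Collection followed the course by a day in treated mice, and the sources used here do not say whether untreated tumors were taken at the same time, so the drug and the time of growth cannot be told apart.

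Matrix metalloproteinases are zinc enzymes, secreted or held at the cell surface, that cut collagens, laminins and other matrix proteins, and they are made as inactive precursors. Tissue inhibitors of metalloproteinases block them by binding the catalytic site, and Timp2 also takes part in the activation of the Mmp2 precursor by Mmp14 at the cell surface. Lysyl oxidases act in the other direction, since they oxidise lysines of collagen and elastin and so start the crosslinks that stiffen a matrix. In tumors these transcripts come from cancer cells, fibroblasts, endothelial cells and leukocytes alike. RNA was measured in whole tumors, so that fewer cells of a type and less RNA per cell cannot be told apart.

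Total counts ranged from 47199949 to 61655287 per tumor. Melanocyte genes (Mitf, Tyr, Tyrp1, Dct, Pmel, Mlana and Sox10) summed to between 10662 and 25997 counts per 1000000 (CPM, scaled by TMM) in every tumor, as the label of a melanoma line implies. The sums were 18015 to 22588 CPM in B6_ctrl and 22712 to 25997 CPM in B6_ETS. They were 11136 to 15043 CPM in ob_ob_ctrl, below every lean tumor, and 10662 to 25021 CPM in ob_ob_ETS. The tumor with the highest value of all 16 was tumor 4 of ob_ob_ETS for 6 of the 10 genes, and results that rest on it are given with and without it. That tumor also had the lowest melanocyte sum of the 16, at 10662 CPM, and the highest sum of fibroblast genes, at 270.1 CPM. Of the lists for other tissue, keratinocyte genes reached 127 CPM in tumor 2 of ob_ob_ETS and stayed at or under 3.36 CPM elsewhere, and skeletal muscle genes ranged from 0.401 to 295 CPM. The labels do not say that each tumor came from a mouse of its own, and p-values measure only the spread between these tumors.

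In obese tumors 6 of the 10 genes rose after ETS and none fell, against a background of 40.2% of all 16209 tested genes called and 21.2% called higher (edgeR quasi-likelihood test, Benjamini-Hochberg adjusted p under 0.05). The 6 were Mmp2, Mmp3, Timp1, Timp2, Lox and Loxl2, and over all 10 the median log2 fold change was 1.66, beside 0.0066 over all tested genes. In lean tumors only Timp2 rose and only Timp3 fell, so that 2 of 10 genes were called where the background was 43.8%, and the median was 0.10 beside -0.01 over all genes. Without tumor 4 of ob_ob_ETS the obese count was 3 of 10 (Mmp2, Timp1 and Timp2), without tumor 1 or 4 of ob_ob_ctrl it was 4 (Mmp2, Timp1, Timp2 and Loxl2), without tumor 3 of ob_ob_ctrl it was also 4 (Mmp2, Mmp13, Timp1 and Timp2), and without tumor 3 of ob_ob_ETS it was 9. The lean count was 3 without tumor 1 of B6_ctrl and without tumor 2 or 4 of ob_ob_ETS, each time with Loxl2 added, and limma-voom with sample weights called 6 genes in lean tumors (Mmp2, Timp2 and Loxl2 higher, Mmp9, Timp3 and Lox lower). The background was larger in that fit too, with 8657 of all 16209 genes called in lean tumors, beside 7099 by the quasi-likelihood test. In obese tumors 5 genes (Mmp2, Mmp3, Timp1, Timp2 and Lox) had all treated tumors above all untreated ones, where 34.2% of all tested genes had groups that did not overlap, and in lean tumors this held for Timp2 and Timp3, where the share was 41.2%.

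**Figure D1:**
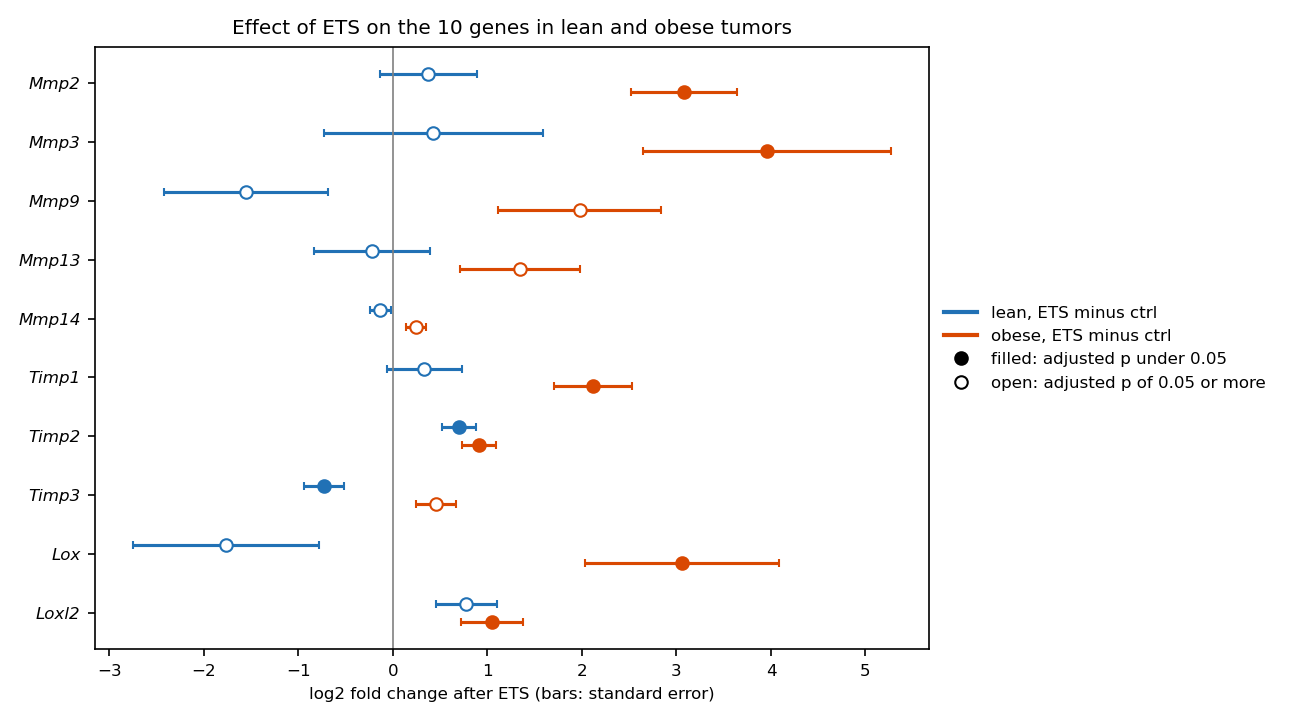
Log2 fold change after ETS (horizontal axis, bars are standard errors, n = 4 tumors per group) of each gene in lean (blue) and obese (orange) tumors, with filled points at an adjusted p under 0.05. The orange points lie right of 0 for all 10 genes, from 0.24 for Mmp14 to 3.96 for Mmp3, and the blue points lie on both sides, from -1.76 for Lox to 0.78 for Loxl2.

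The response of the hosts was compared directly as the lean effect minus the obese effect. This difference was called for 4 of 10 genes, Mmp2, Timp1, Timp3 and Lox, where the background was 16.4% of all tested genes (10.1% with the lean effect lower and 6.35% with it higher). In each of the 4 the effect of ETS was more positive in obese tumors, and the point estimates of the other 6 had the same sign without passing the test. The count fell to 2 (Mmp2 and Timp3) when tumor 1 of B6_ctrl, tumor 4 of B6_ETS, tumor 3 or 4 of ob_ob_ctrl or tumor 4 of ob_ob_ETS was left out.

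Among the secreted proteases, Mmp2 and Mmp3 showed the obese rise. Mmp2 (chr8:92827291-92853420, GRCm38, GENCODE annotation), a gelatinase that cuts denatured collagen and collagen of basement membranes, stood in lean tumors at 39.5, 25.4, 5.98 and 9.66 CPM before therapy and at 21.02, 30.1, 26.1 and 27.2 CPM after ETS. In obese tumors Mmp2 stood at 4.10, 11.1, 6.56 and 5.27 CPM before therapy and at 54.5, 37.6, 26.1 and 110.5 CPM after ETS. The lean groups overlapped, whereas every treated obese tumor lay above every untreated one. Mmp2 rose in obese tumors by 3.08 ± 0.56 (log2 fold change ± SE, adjusted p = 0.000717, edgeR quasi-likelihood test). In lean tumors the estimate was 0.37 ± 0.51 (adjusted p = 0.577), and the lean effect minus the obese effect was -2.71 ± 0.74 (adjusted p = 0.0210, and 0.0633 by limma-voom with sample weights).

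Mmp3 (chr9:7445822-7455975), stromelysin-1, which degrades proteoglycans and fibronectin and activates other proteases, varied most between tumors of a group, with a within-group SD of 2.32 on the log2 CPM scale where the median tested gene had 0.237. Its values in lean tumors were 12.8, 14.0, 0.216 and 2.61 CPM before therapy and 14.2, 23.5, 0.232 and 2.04 CPM after ETS. In obese tumors Mmp3 went from 0.392, 4.49, 2.24 and 0.335 CPM to 21.01, 29.4, 5.07 and 60.4 CPM. Tumors 1 and 4 of ob_ob_ctrl held only 19 reads of Mmp3 each. The obese groups did not overlap, and the nearest values were 4.49 CPM in an untreated and 5.07 CPM in a treated tumor. Mmp3 rose in obese tumors by 3.96 ± 1.31 (log2, adjusted p = 0.0262), with 0.43 ± 1.16 in lean tumors (adjusted p = 0.788) and a difference between hosts of -3.53 ± 1.70 that did not pass the test (adjusted p = 0.177). The obese call was lost when tumor 1 (3.63, adjusted p = 0.0636), 3 (4.06, adjusted p = 0.0601) or 4 (3.61, adjusted p = 0.0692) of ob_ob_ctrl or tumor 4 of ob_ob_ETS (3.31, adjusted p = 0.0571) was left out.

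Mmp9 (chr2:164940780-164955850), the other gelatinase and a product of macrophages and neutrophils in many tissues, was scarce. It stood in lean tumors at 2.52, 1.69, 0.185 and 1.66 CPM before therapy and at 0.480, 1.24, 0.0714 and 0.279 CPM after ETS, so the groups overlapped. In obese tumors Mmp9 was at 0.268, 1.01, 0.334 and 1.29 CPM before therapy and at 3.09, 1.91, 0.413 and 6.04 CPM after ETS, with treated tumor 3 inside the untreated range. Neither change passed the test, with -1.56 ± 0.87 in lean (log2, adjusted p = 0.157) and 1.98 ± 0.86 in tumors of obese mice (adjusted p = 0.0785). The obese value was 2.34 (adjusted p = 0.0345) without tumor 3 of ob_ob_ETS, and DESeq2 called it with all tumors (adjusted p = 0.0316). The difference between hosts was -3.53 ± 1.22 (adjusted p = 0.0607), and it was called without tumor 3 of B6_ctrl (-3.90, adjusted p = 0.0318), tumor 2 of B6_ETS (-4.42, adjusted p = 0.0302) or tumor 3 of ob_ob_ETS (-3.90, adjusted p = 0.0311). With all tumors it was called by DESeq2 (adjusted p = 0.0111) and by limma-voom with sample weights (-3.92, adjusted p = 0.0358). The neutrophil list summed to 3.45 to 14.2 CPM before and 0.411 to 2.53 CPM after ETS in lean tumors, and to 1.26 to 20.8 CPM and 1.94 to 28.2 CPM in obese tumors, with its highest value in tumor 4 of ob_ob_ETS, as for Mmp9. Of its genes Mpo had no count in B6_ctrl, ob_ob_ctrl and ob_ob_ETS and Ly6g none in B6_ETS and ob_ob_ctrl, and the part of neutrophils in the Mmp9 values was not tested.

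Mmp13 (chr9:7272514-7283331), a collagenase that cuts fibrillar collagen, was scarce too. Its values were 1.85, 1.12, 2.45 and 4.48 CPM in untreated and 2.06, 3.03, 2.34 and 1.06 CPM in treated lean tumors. In obese tumors they were 0.247, 1.13, 2.12 and 0.317 CPM before therapy and 3.78, 2.98, 0.731 and 2.31 CPM after ETS. Both pairs of groups overlapped, and the changes of -0.22 ± 0.61 (lean, adjusted p = 0.792) and 1.35 ± 0.64 (obese, adjusted p = 0.103) did not pass the test. The obese change was called without tumor 3 of ob_ob_ctrl (2.11, adjusted p = 0.0264) and without tumor 3 of ob_ob_ETS (1.65, adjusted p = 0.0467).

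Mmp14 (chr14:54431612-54445364), the membrane-bound protease that activates the Mmp2 precursor, was the most even of the 10, with a within-group SD of 0.156 on the log2 scale. In lean tumors it stood at 195, 213, 239.7 and 257 CPM before therapy and at 217, 170.1, 216 and 221 CPM after ETS. In obese tumors Mmp14 was at 213, 229, 206 and 184 CPM before therapy and at 243, 278, 227 and 236 CPM after ETS. The highest and the lowest of the 16 tumors differed by 1.63-fold, whereas this ratio was 279.7-fold for Mmp3 and 368-fold for Lox. The changes were -0.13 ± 0.11 in lean (log2, adjusted p = 0.339) and 0.24 ± 0.11 in tumors of obese mice (adjusted p = 0.0888, and 0.0499 without tumor 2 of B6_ETS). On log2(TPM + 1), which shifted the lean effect of all tested genes by a median of -0.35, Mmp14 was lower after ETS in lean tumors (-0.50, limma, adjusted p = 0.0111).

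The DNA just before the start sites of Mmp14 and Mmp3 is shown here with that of Mmp13, which lies near Mmp3 on chromosome 9, and of Timp1, whose values followed those of Mmp2 and Mmp3 from tumor to tumor. The sequences are the 250 bases before the annotated start from RefSeq (GRCm38.p6), which held such a window for 6 of the 10 genes, and capitals mark motifs, searched on both strands, with no overlap between them. The AP-1 motif was searched as TGAGTCA. For the TATA-type promoter element the letters were TATAAA. The motif called a GC box was spelled GGGCGG.
Mmp3, chr9:7445572-7445821, plus strand: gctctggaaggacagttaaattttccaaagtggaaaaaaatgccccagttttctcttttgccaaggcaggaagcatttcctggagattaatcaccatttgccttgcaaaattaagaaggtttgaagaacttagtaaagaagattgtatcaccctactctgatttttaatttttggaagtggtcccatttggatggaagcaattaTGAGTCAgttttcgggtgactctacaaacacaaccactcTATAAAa
Mmp13, chr9:7272264-7272513, plus strand: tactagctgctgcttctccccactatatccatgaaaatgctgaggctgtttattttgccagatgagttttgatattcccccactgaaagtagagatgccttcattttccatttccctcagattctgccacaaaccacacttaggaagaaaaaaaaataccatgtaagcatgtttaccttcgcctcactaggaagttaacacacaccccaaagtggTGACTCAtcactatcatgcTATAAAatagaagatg
Mmp14, chr14:54431348-54431597, plus strand: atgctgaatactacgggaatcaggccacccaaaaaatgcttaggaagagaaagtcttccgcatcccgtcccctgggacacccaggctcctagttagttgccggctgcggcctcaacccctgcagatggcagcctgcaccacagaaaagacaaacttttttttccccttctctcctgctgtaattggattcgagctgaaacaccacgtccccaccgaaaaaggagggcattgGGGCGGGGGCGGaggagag
Timp1, chrX:20869916-20870165, plus strand: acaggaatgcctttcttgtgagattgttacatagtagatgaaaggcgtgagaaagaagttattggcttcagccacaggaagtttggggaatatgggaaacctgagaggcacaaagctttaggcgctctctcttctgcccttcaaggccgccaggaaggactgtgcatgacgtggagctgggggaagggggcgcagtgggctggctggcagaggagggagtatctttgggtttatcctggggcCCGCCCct
Mmp3 and Mmp13 each held an AP-1 motif and a TATA box and no GC box. For Mmp3 the AP-1 motif lay at positions -46 to -40 and the TATA box at -7 to -2 from the annotated start, and for Mmp13 they lay at -35 to -29, on the minus strand, and at -16 to -11. Mmp14 held GC boxes side by side, at -19 to -14 and -13 to -8, and Timp1, Timp2 and Timp3 held a GC box each, with no AP-1 motif or TATA box in these windows. Of all 32851 windows of this length, 4.46% held the AP-1 motif, 12.4% the TATA box and 32.7% the GC box. The Mmp3 window had a GC content of 37.6% and that of Mmp14 55.2%, beside a median of 52.4% over all windows. These are matches of letters only, and binding was not measured. Timp1, with a within-group SD of 0.63 on the log2 scale, held a GC box like the even Mmp14 (0.156). A relation between motifs and the spread between tumors was not tested.

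**Figure D2:**
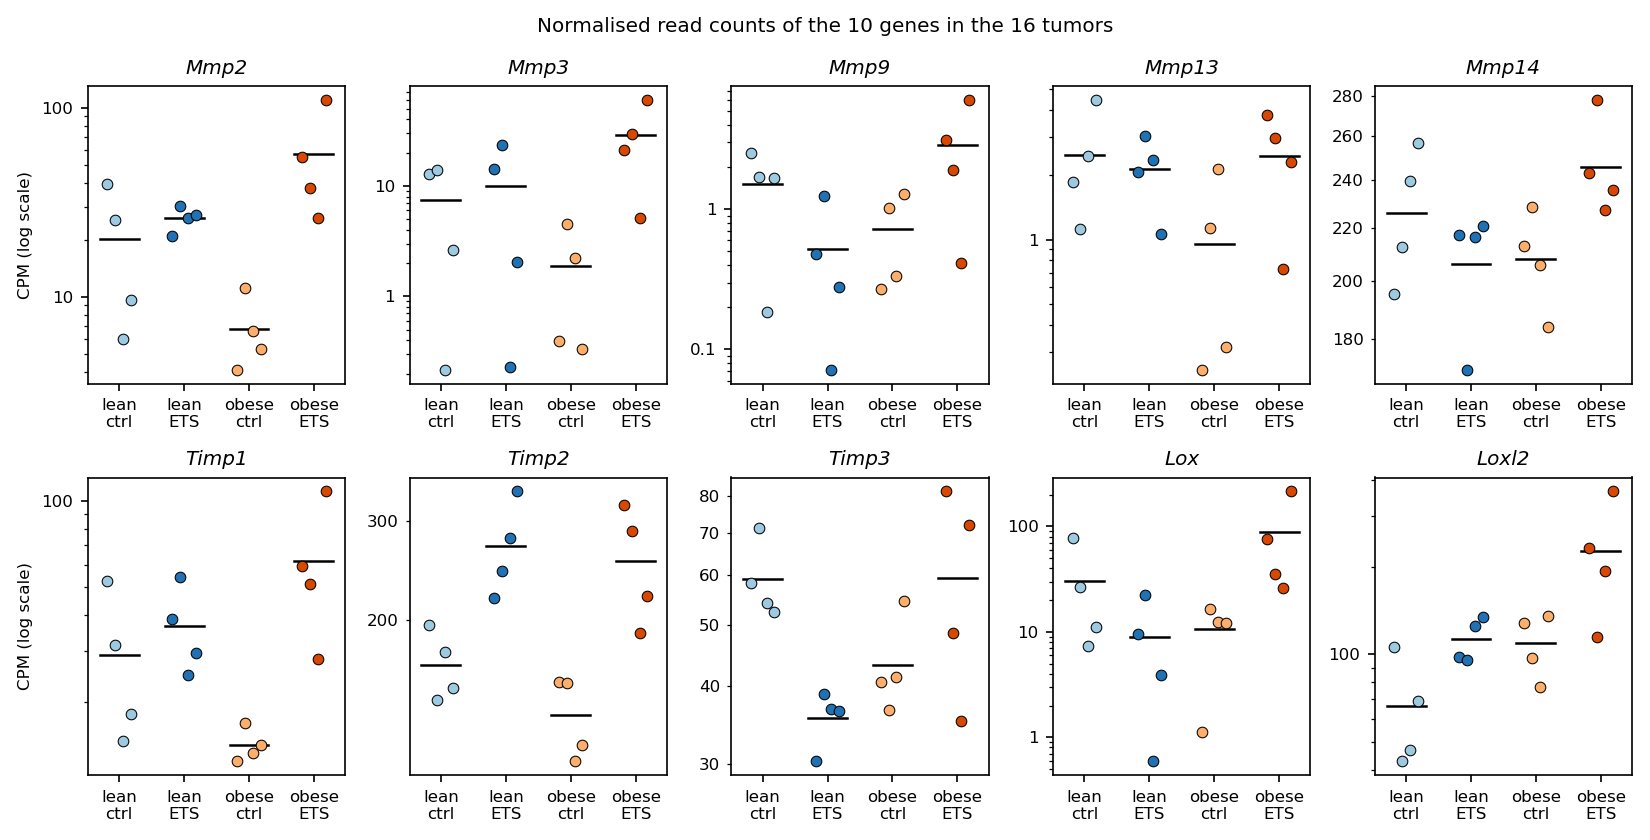
Normalised read counts (CPM, log axes with a range of their own in each panel) of the 10 genes in each of the 16 tumors, 4 per group, with a line at the group mean. Mmp2, Mmp3, Timp1, Timp2 and Lox show treated obese tumors above all untreated obese tumors, whereas Mmp14 spans only 170.1 to 278 CPM over all tumors.

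Of the inhibitors, Timp1 rose in obese tumors, Timp2 rose in both hosts and Timp3 fell in lean tumors. Timp1 (chrX:20870166-20874735), which binds most secreted metalloproteinases, stood in lean tumors at 52.5, 31.6, 14.7 and 18.2 CPM before therapy and at 38.8, 54.1, 24.8 and 29.6 CPM after ETS. In obese tumors Timp1 stood at 12.5, 16.9, 13.3 and 14.2 CPM before therapy and at 59.1, 51.4, 28.2 and 108 CPM after ETS. Untreated obese tumors were close to each other, and all treated obese tumors lay above them, whereas the lean groups overlapped. Timp1 rose in obese tumors by 2.12 ± 0.41 (log2, adjusted p = 0.00126), and the estimate in lean tumors was 0.33 ± 0.40 (adjusted p = 0.517). The difference between hosts, -1.78 ± 0.57 (adjusted p = 0.0428), was lost without any of 10 tumors, namely 1 or 2 of B6_ctrl, 1, 3 or 4 of B6_ETS, 1, 3 or 4 of ob_ob_ctrl and 1 or 4 of ob_ob_ETS, with estimates from -1.84 to -1.34 and adjusted p from 0.0533 to 0.0807. With all tumors kept it was lost when no filter was used (-1.79, edgeR quasi-likelihood test, adjusted p = 0.0533).

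Timp2 (chr11:118301069-118355740), the inhibitor that also serves Mmp2 activation, rose in both hosts. In lean tumors it went from 196, 144, 175 and 151 CPM to 219, 245, 279.6 and 339 CPM. In obese tumors Timp2 went from 155, 154, 112 and 120.0 CPM to 320.4, 288, 189 and 221 CPM. All treated tumors lay above all untreated tumors of their host. Timp2 rose by 0.70 ± 0.18 in lean (log2, adjusted p = 0.00559) and by 0.91 ± 0.18 in obese tumors (adjusted p = 0.00123), and the difference between these was -0.21 ± 0.25 (adjusted p = 0.610). On log2(TPM + 1), with the same shift of all genes, the lean value of Timp2 was 0.31 (limma, adjusted p = 0.125).

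Timp3, an inhibitor bound to the matrix that also blocks Adam proteases, went the other way in lean tumors. Its values there were 58.1, 71.2, 54.1 and 52.4 CPM before therapy and 30.3, 38.8, 36.7 and 36.5 CPM after ETS. In obese tumors Timp3 was at 40.5, 36.6, 41.2 and 54.4 CPM before therapy and at 81.5, 48.5, 35.2 and 72.0 CPM after ETS. Every treated lean tumor lay below every untreated one, and the obese groups overlapped through treated tumor 3. Timp3 fell by 0.73 ± 0.21 in lean tumors (log2, adjusted p = 0.0112), and the obese estimate was 0.46 ± 0.21 (adjusted p = 0.0930, and 0.64 with adjusted p = 0.00985 without tumor 3 of ob_ob_ETS). The difference between hosts was -1.19 ± 0.30 (adjusted p = 0.0127) and stayed called under each of the 24 alternatives that gave it, with adjusted p from 0.000917 to 0.0300. Exons of Timp3 (chr10:86300372-86349506, GRCm38) overlap those of Syn3 on the opposite strand, and Syn3 was at 0.559 to 1.71 CPM.

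Of the crosslinking enzymes, Lox showed the largest difference between hosts among the 10 genes. Lox, on chromosome 18, the lysyl oxidase of collagen and elastin fibres, stood in lean tumors at 77.5, 26.6, 7.28 and 11.1 CPM before therapy and at 9.51, 22.2, 0.589 and 3.89 CPM after ETS. In obese tumors Lox stood at 1.11, 16.7, 12.5 and 12.2 CPM before therapy and at 76.6, 35.8, 26.1 and 217 CPM after ETS. Treated obese tumors all lay above untreated ones, and the lean groups overlapped. Lox rose in obese tumors by 3.06 ± 1.03 (log2, adjusted p = 0.0273), and the lean estimate was -1.76 ± 0.98 (adjusted p = 0.158). The lean effect minus the obese effect was -4.83 ± 1.42 (adjusted p = 0.0297). Without tumor 4 of ob_ob_ETS, the highest of all tumors, the obese value was 2.12 (adjusted p = 0.0942) and the difference -3.92 (adjusted p = 0.0619). The obese call was also lost without tumor 1 (2.69, adjusted p = 0.0579), 3 (3.15, adjusted p = 0.0597) or 4 (3.13, adjusted p = 0.0585) of ob_ob_ctrl. The difference was lost as well without tumor 1 of B6_ctrl (-3.80, adjusted p = 0.0612), tumor 4 of B6_ETS (-4.64, adjusted p = 0.0567) or tumor 3 (-4.92, adjusted p = 0.0534) or 4 (-4.90, adjusted p = 0.0538) of ob_ob_ctrl.

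Loxl2 (chr14:69609068-69695834), which crosslinks collagen of basement membranes, was the more abundant lysyl oxidase. In lean tumors it stood at 106, 42.7, 46.6 and 69.0 CPM before therapy and at 97.7, 96.0, 125 and 135 CPM after ETS. In obese tumors Loxl2 stood at 129, 97.2, 77.1 and 136 CPM before therapy and at 233, 115, 194 and 367 CPM after ETS. The groups overlapped in both hosts. Loxl2 rose in obese tumors by 1.05 ± 0.33 (log2, adjusted p = 0.0188), with 0.78 ± 0.32 in lean tumors (adjusted p = 0.0630) and a difference of -0.27 ± 0.46 (adjusted p = 0.733). The obese call was lost without tumor 3 of ob_ob_ctrl (0.91, adjusted p = 0.0623) and without tumor 4 of ob_ob_ETS (0.71, adjusted p = 0.0783), and also by limma-voom with sample weights (0.69, adjusted p = 0.0727) and by limma on log2(TPM + 1) (0.85, adjusted p = 0.0561). The lean change was called without tumor 1 of B6_ctrl (1.10, adjusted p = 0.0120), and without tumor 2 (0.77, adjusted p = 0.0421) or tumor 4 (0.77, adjusted p = 0.0410) of ob_ob_ETS. With all tumors kept it was called by the edgeR exact test (adjusted p = 0.0413), DESeq2 (adjusted p = 0.0296) and limma-voom with sample weights (1.02, adjusted p = 0.0031), and with only the groups compared (adjusted p = 0.0409). Loxl2 has a near-identical neighbour on chromosome 14, Gm21451 (chr14:69390854-69480287, GRCm38), annotated as an unprocessed pseudogene, and 84.0% of the windows of 100 bases in its transcript occur unchanged in a Loxl2 transcript. Gm21451 carried between 26.3% and 32.3% of the count of Loxl2 in each tumor, so that reads may be split between these genes. With both counts added, an alternative chosen after seeing the data, the change was 0.78 in lean (adjusted p = 0.0611) and 1.02 in tumors of obese mice (adjusted p = 0.0212).

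Before therapy, obese tumors differed from lean ones in 1 of the 10 genes, where the background was 26.4%, with 12.9% lower and 13.5% higher in obese tumors, and no gene had groups that did not overlap, as 30.4% of all tested genes did. Mmp2 was lower in obese tumors by -1.58 ± 0.53 (log2, adjusted p = 0.0390), and 5 genes had an unadjusted p under 0.05. Its call was lost without tumor 1 of B6_ctrl (-1.02, adjusted p = 0.152), without tumor 2 of B6_ctrl (-1.44, adjusted p = 0.0888) and without tumor 1 (-1.40, adjusted p = 0.0997), 3 (-1.56, adjusted p = 0.0862) or 4 (-1.47, adjusted p = 0.104) of ob_ob_ctrl. It was also lost with all tumors kept, with no filter (adjusted p = 0.0533), by limma-voom with sample weights (-1.01, adjusted p = 0.131), by limma on log2(TPM + 1) (-1.25, adjusted p = 0.0661) and with only the groups compared (adjusted p = 0.0567). Loxl2 was called higher without tumor 1 of B6_ctrl (1.06, adjusted p = 0.0245), Mmp13 was called lower without tumor 3 of ob_ob_ctrl (-2.13, adjusted p = 0.0340), and Timp1 was called lower without tumor 3 of B6_ctrl (-1.26, adjusted p = 0.0353) or without tumor 3 (-1.04, adjusted p = 0.0472) or 4 (-1.06, adjusted p = 0.0339) of ob_ob_ETS.

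After ETS, edgeR's quasi-likelihood test called 0 of the 10 genes between obese and lean tumors, where the background was 5.58% (3.28% higher and 2.3% lower in obese tumors), and 6 had an unadjusted p under 0.05. The estimates were largest for Lox (3.30 ± 1.04, adjusted p = 0.0704), whose obese tumors all lay above the lean ones, and for Mmp9 (2.48 ± 0.88, adjusted p = 0.0996). Mmp14 also had all treated obese tumors above all treated lean ones, at 0.26 ± 0.11 (adjusted p = 0.164), and groups that did not overlap made up 13.2% of all tested genes. Loxl2 was at 1.004 ± 0.32 (adjusted p = 0.0754) and Timp3 at 0.74 ± 0.21 (adjusted p = 0.0511). The edgeR exact test and DESeq2 each called Lox, Mmp9, Timp3 and Loxl2 higher in obese tumors. Without tumor 2 of ob_ob_ETS the quasi-likelihood test called Timp3 (0.82, adjusted p = 0.0373) and Loxl2 (1.22, adjusted p = 0.0300), and without tumor 3 it called Timp3 (0.92, adjusted p = 0.0139).

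Levels were compared between genes per length, in transcripts per 1000000 transcripts (TPM) as deposited. In untreated lean tumors Mmp14 stood first at 129 ± 23.2 TPM (SD, n = 4), followed by Timp2 at 99.0 ± 11.01 and Timp1 at 68.9 ± 34.9 TPM. Timp3 (27.2 ± 4.34 TPM) and Loxl2 (26.4 ± 9.40 TPM) came next, then Mmp2 (13.6 ± 9.55 TPM), Lox (12.7 ± 12.5 TPM) and Mmp3 (8.58 ± 8.12 TPM), and Mmp13 (2.01 ± 1.22 TPM) and Mmp9 (0.971 ± 0.602 TPM) stood last. Only Timp1 and Timp3 were neighbours in this order with ranges that did not overlap. In treated obese tumors the order began with Timp1 (129 ± 77.0 TPM), Timp2 (128 ± 15.9 TPM) and Mmp14 (119 ± 9.80 TPM), which overlapped each other, and Loxl2 followed at 80.8 ± 41.8 TPM. Lox (34.3 ± 36.3 TPM), Mmp2 (34.1 ± 23.7 TPM), Mmp3 (29.8 ± 26.03 TPM) and Timp3 (23.1 ± 7.48 TPM) overlapped too, whereas Mmp9 and Mmp13, both at 1.62 TPM on average, lay below all of these.

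The summed TPM of the 5 proteases over that of the 3 inhibitors was taken in each tumor as a description of transcript balance, since protein and activity were not measured. In lean tumors this ratio was 0.579, 0.805, 0.864 and 1.01 before therapy and 0.658, 0.504, 0.588 and 0.509 after ETS. In obese tumors it was 0.883, 0.965, 1.07 and 0.836 before therapy and 0.556, 0.699, 0.781 and 0.673 after ETS. In TPM, treated obese tumors all lay below untreated ones, and in lean tumors the groups overlapped through untreated tumor 1. With summed CPM the obese groups overlapped, since untreated tumor 4 was at 1.01 and treated tumors 3 and 4 at 1.03 and 1.04. The means were 0.815 ± 0.1802 and 0.565 ± 0.0731 in the lean host and 0.938 ± 0.101 and 0.677 ± 0.0933 in obese tumors (SD, n = 4). The protease sum went from 154 ± 10.6 to 115 ± 8.67 TPM in lean tumors and from 115 ± 16.8 to 186 ± 53.0 TPM in obese tumors, and the inhibitor sum went from 195 ± 35.0 to 206 ± 20.9 TPM and from 123 ± 15.7 to 279 ± 84.3 TPM. TPM shifted the lean effect of all genes by a median of -0.35, and on the TMM-scaled CPM the lean sums went from 258 ± 12.1 to 245 ± 12.1 CPM for the proteases and from 255 ± 36.2 to 343 ± 48.1 CPM for the inhibitors. The obese sums went from 218 ± 22.7 to 338 ± 64.2 CPM and from 193 ± 19.7 to 376 ± 87.8 CPM. Mmp14 made up between 46.6% and 97.0% of the protease sum. Without Mmp14 the ratio was 0.122 ± 0.0691 before and 0.120 ± 0.0478 after ETS in lean tumors, and 0.0603 ± 0.0332 before and 0.219 ± 0.0991 after ETS in obese tumors, where all treated tumors lay above the untreated ones.

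**Figure D3:**
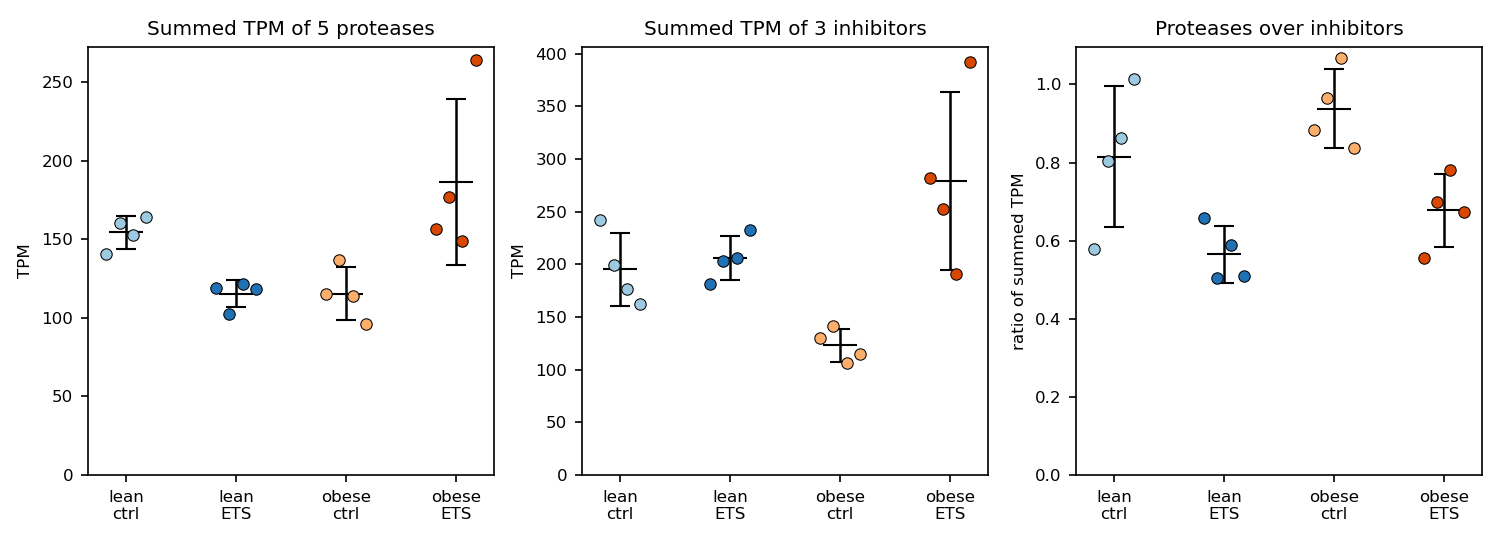
Summed TPM of the 5 metalloproteinases, summed TPM of the 3 Timp genes and their ratio in each tumor (4 per group), with the group mean and SD as bars. The ratio was 0.938 before and 0.677 after ETS in obese tumors, although both sums were higher after ETS. With summed CPM the obese groups of the ratio overlapped.

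Markers of stromal cells moved with some of these genes and not with others. The fibroblast list (Pdgfra, Dcn, Lum, Fap, Thy1 and Dpt) summed to 18.0 to 155 CPM in untreated and 10.05 to 57.2 CPM in treated lean tumors, and to 7.69 to 33.3 CPM in untreated and 41.4 to 270.1 CPM in treated obese tumors. All 5 of its tested genes rose in obese tumors, 1 fell in lean tumors, and all 5 were called for the difference between hosts. Macrophage genes (Adgre1, Csf1r, Cd68, Mrc1, C1qa, C1qb and C1qc) summed to 302 to 981 CPM before and 41.3 to 378 CPM after ETS in lean tumors, and to 24.6 to 178 CPM before and 306 to 811 CPM after ETS in obese tumors. None of these markers was at 0 in a whole group. In lean tumors endothelial genes summed to 96.0 to 125 CPM before and 64.9 to 91.5 CPM after ETS, pericyte genes to 65.7 to 113 and 55.6 to 80.02 CPM, and adipocyte genes to 10.2 to 24.8 and 7.64 to 17.4 CPM. In obese tumors these sums were 44.9 to 81.6 before and 80.4 to 215 CPM after ETS for endothelial genes, 52.9 to 59.3 and 80.3 to 145 CPM for pericyte genes, and 13.3 to 89.0 and 65.8 to 252 CPM for adipocyte genes. The pericyte sums of treated and untreated obese tumors did not overlap. T cell genes summed to 11.01 to 21.1 CPM in untreated lean tumors and to at most 1.05 CPM in every other group. The part of these cells in the changes of the 10 genes was not tested.

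Within groups, after each tumor's log2 value was set relative to its group mean, 5 of the 10 genes followed the fibroblast sum across the 16 tumors. Pearson's r was 0.917 for Mmp3 (Spearman's rho 0.924, both with p = 1e-05 in a two-sided permutation test within groups, the smallest that 100000 permutations can give, and adjusted p = 0.0004 over 40 relations). For Timp1, r was 0.900 and rho 0.918 (permutation p = 8e-05 and 9e-05, adjusted p = 0.0016 and 0.0012). For Mmp2, r was 0.834 and rho 0.779 (permutation p = 0.00048 and 0.00167, adjusted p = 0.0064 and 0.00954). Lox had an r of 0.818 and a rho of 0.894 (permutation p = 0.00096 and 7e-05, adjusted p = 0.00912 and 0.0012), and Mmp9 an r of 0.814 and a rho of 0.835 (permutation p = 0.00114 and 0.0011, adjusted p = 0.00912 and 0.0088). These genes therefore varied together with fibroblast RNA between tumors given the same treatment in the same host. Without the 2 tumors farthest from the median (ob_ob_ETS 4 and B6_ETS 2), r was 0.920 for Mmp3, 0.863 for Timp1, 0.843 for Mmp2, 0.751 for Lox and 0.746 for Mmp9. For Mmp13, Mmp14, Timp2, Timp3 and Loxl2, r lay between -0.367 (Mmp14) and 0.281 (Mmp13), with adjusted permutation p from 0.506 to 0.966 for r and rho. With the macrophage sum, r was 0.780 for Mmp3 (rho 0.859, permutation p = 0.00362 and 0.00059, adjusted p = 0.0209 and 0.0059), 0.610 for Timp1 (rho 0.759, permutation p = 0.00365 and 0.00141, adjusted p = 0.0209 and 0.0094) and 0.524 for Mmp2 (rho 0.579, permutation p = 0.00752 and 0.0100, adjusted p = 0.0376 and 0.0446). Without the 2 farthest tumors (B6_ETS 4 and ob_ob_ctrl 4) these r were 0.874, 0.743 and 0.670. For Lox the rho of 0.747 with the macrophage sum passed (adjusted permutation p = 0.0385) and the r of 0.584 did not (adjusted permutation p = 0.203), and r was 0.832 without those tumors. Mmp9 had an r of 0.532 and a rho of 0.612 with the macrophage sum, neither of which passed (adjusted permutation p = 0.1803 and 0.0910), and an r of 0.825 without those tumors. No relation with the endothelial or the melanoma list passed, the nearest being Timp2 with the melanoma list (r = 0.678, rho 0.718, permutation p = 0.0324 and 0.0178, adjusted p = 0.144 and 0.0712).

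**Figure D4:**
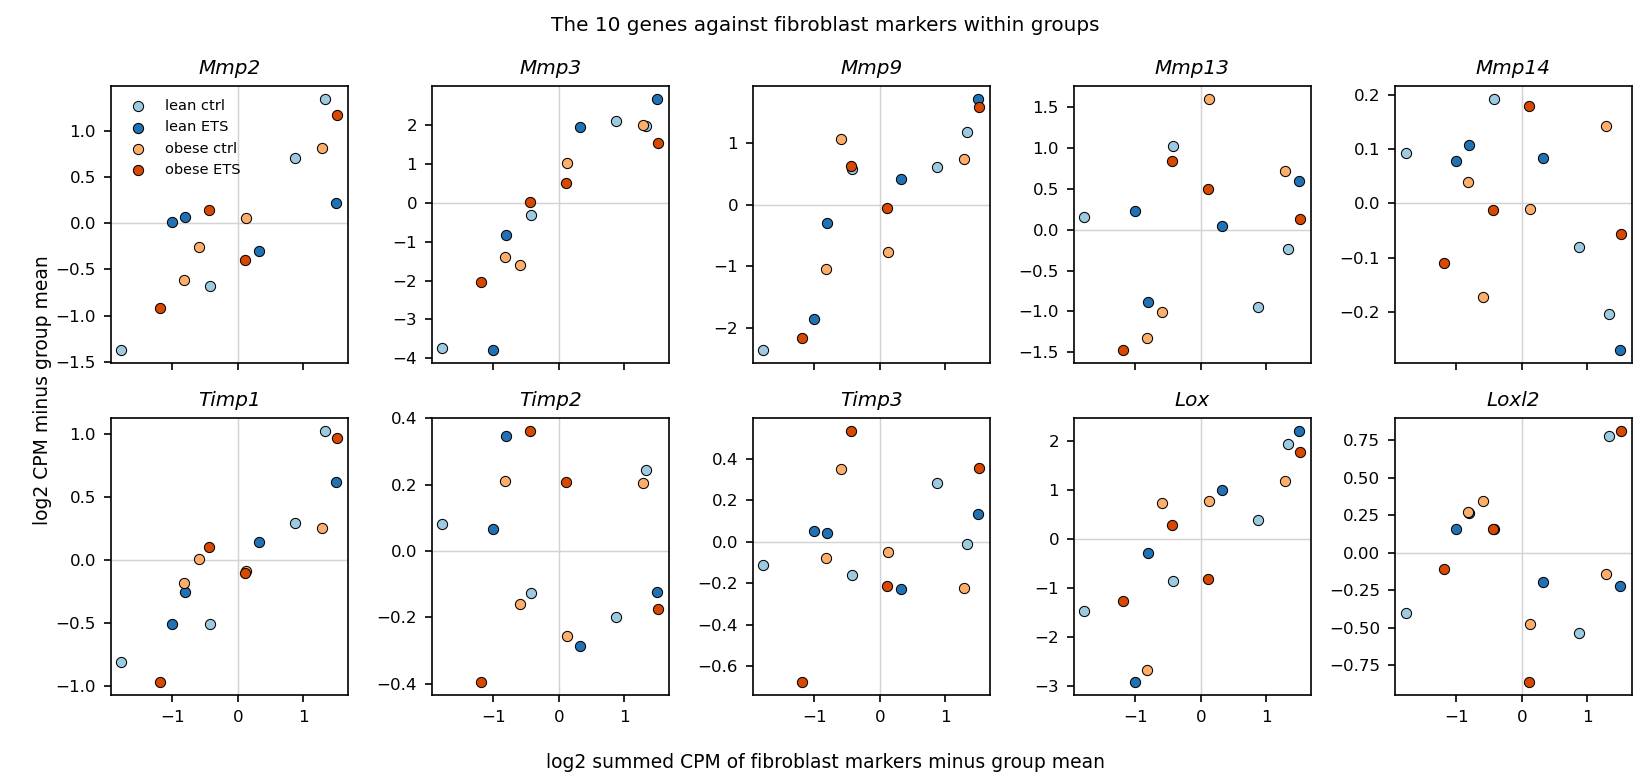
Log2 CPM of each gene (vertical axis, ranges differ by panel) against the log2 summed CPM of 6 fibroblast markers (horizontal axis), both minus the group mean, for the 16 tumors coloured by group. Mmp3 (r = 0.917) and Timp1 (r = 0.900) lie along a rising line, whereas Timp2 (r = -0.0905) and Loxl2 (r = 0.135) do not.

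The genes with the most similar pattern over the 16 tumors, among 13313 genes with a mean of at least 1 CPM, are given as a description, since the points share libraries and group means. Mmp2 and Timp1 were nearest to each other (r = 0.955), and Ctsk, a collagen-degrading cathepsin, came next for Mmp2 (r = 0.941). For Lox these were Medag (r = 0.971), Fbln2 (r = 0.966) and Mfap5 (r = 0.960), the last 2 coding for proteins of elastic fibres. Mmp3 was nearest to Srpx2, Cpxm1 and Gpx3 (r = 0.943, 0.941 and 0.932), Mmp9 to Tmem45a, Egfr and Ptges (r = 0.918, 0.914 and 0.912) and Mmp13 to Col13a1, Kcnq1 and Zadh2 (r = 0.816, 0.814 and 0.811). Mmp14 was nearest to Macf1, Adam10 and Pcdhb17 (r = 0.857, 0.846 and 0.842), Timp2 to Man2b2, Tmem127 and Trf (r = 0.946, 0.944 and 0.937), and Timp3 to Smim3, Adora2a and Ptgir (r = 0.857, 0.856 and 0.855). Cryzl2 (r = 0.937) followed for Mmp2, Tmem8 and Tspo (r = 0.953 and 0.952) followed for Timp1, and Gm21451, Gys1 and Rtn4rl2 (r = 0.993, 0.944 and 0.932) headed the list for Loxl2.

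Lists of related genes were read against the same shares of all genes, 21.2% called higher in obese tumors, 21% called higher and 22.8% called lower in lean tumors, and 16.4% called for the difference. Of 8 tested metalloproteinases outside the 10, 5 rose and none fell in obese tumors (median 1.75), while 2 rose and 1 fell in lean tumors (median 0.16), and 2 were called for the difference between hosts. Mmp19 fell by 2.03 ± 0.67 in lean tumors (adjusted p = 0.0230) and rose by 2.34 ± 0.67 in obese tumors (adjusted p = 0.0131), with a difference of -4.37 ± 0.95 (adjusted p = 0.00545). Mmp23 rose in obese tumors (2.03 ± 0.56, adjusted p = 0.00999) and differed between hosts (-2.96 ± 0.77, adjusted p = 0.0163), with -0.94 ± 0.54 in lean tumors (adjusted p = 0.172). The membrane-type Mmp15 rose in both hosts, by 2.25 ± 0.32 in lean mice (adjusted p = 9.14e-05) and 1.503 ± 0.31 in obese ones (adjusted p = 0.00174), with a difference of 0.75 ± 0.43 (adjusted p = 0.262). Mmp11, stromelysin-3, rose in lean tumors (0.94 ± 0.32, adjusted p = 0.0264), its obese estimate was -0.37 ± 0.31 (adjusted p = 0.357), and the difference did not pass the test (1.31 ± 0.44, adjusted p = 0.0556). Of 19 tested Adam and Adamts genes, 7 fell in lean tumors and none rose (median -0.18), and in obese tumors 10 rose and 2 fell (median 0.69). Adam8, a protease of leukocytes and tumor cells, fell by 1.55 ± 0.52 in lean tumors (adjusted p = 0.0245) and rose by 2.27 ± 0.53 in obese tumors (adjusted p = 0.00390), and Adamts2, which trims procollagen, fell by 0.92 ± 0.34 in lean tumors (adjusted p = 0.0367) and rose by 1.75 ± 0.34 in obese tumors (adjusted p = 0.00124). Their differences between hosts were -3.82 ± 0.74 (adjusted p = 0.00257) and -2.67 ± 0.48 (adjusted p = 0.00151), 2 of the 5 called in this list. Adamts6 fell in lean tumors (-1.91 ± 0.41, adjusted p = 0.00181), with an obese estimate of 0.19 ± 0.39 (adjusted p = 0.735) and a difference of -2.10 ± 0.56 (adjusted p = 0.0182). Adamts20 fell in both hosts, at -1.43 ± 0.32 in lean (adjusted p = 0.00244) and -1.79 ± 0.32 in obese mice (adjusted p = 0.000678), with a difference of 0.36 ± 0.44 (adjusted p = 0.627). Adam17, the sheddase of tumor necrosis factor, also fell in both, at -0.40 ± 0.10 in lean (adjusted p = 0.00680) and -0.36 ± 0.10 in obese mice (adjusted p = 0.0125), with a difference of -0.03 ± 0.15 (adjusted p = 0.907).

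In plasminogen activation, a serine protease route to metalloproteinase activation, of 6 tested genes 4 fell and none rose in lean tumors (median -1.08), 6 rose in obese tumors (median 1.83) and 5 were called for the difference. Plau, urokinase, fell by 1.21 ± 0.30 in lean tumors (adjusted p = 0.00459), rose by 1.84 ± 0.31 in obese ones (adjusted p = 0.000392) and differed by -3.05 ± 0.43 (adjusted p = 0.000223), and Serpine2, an inhibitor of serine proteases, rose in obese tumors (2.07 ± 0.42, adjusted p = 0.00146). F10, coagulation factor X, fell by 2.72 ± 0.87 in lean tumors (adjusted p = 0.0202) and rose by 2.49 ± 0.87 in obese tumors (adjusted p = 0.0338), with a difference of -5.21 ± 1.24 (adjusted p = 0.00954), but without tumor 4 of ob_ob_ETS its obese value was 0.39 (adjusted p = 0.609). Of the matrix-degrading cathepsins, all 4 rose in obese tumors (median 1.73), 1 fell in lean tumors and 2 were called for the difference. The gene that fell was Ctss, cathepsin S of antigen-presenting cells, which fell by 3.40 ± 0.71 in lean tumors (adjusted p = 0.00164) and rose by 2.42 ± 0.69 in obese tumors (adjusted p = 0.0124), with a difference of -5.82 ± 0.99 (adjusted p = 0.00105). Ctsk rose in obese tumors (1.95 ± 0.42, adjusted p = 0.00236), and its difference between hosts did not pass the test (-1.25 ± 0.58, adjusted p = 0.160). Ctsb rose in obese tumors (1.51 ± 0.18, adjusted p = 3.89e-05) and differed between hosts (-1.61 ± 0.25, adjusted p = 0.000470). Of 2 tested inhibitors outside the Timp genes, the membrane-anchored Reck rose in lean tumors (0.56 ± 0.13, adjusted p = 0.00298), neither was called in obese tumors, and the difference for Reck did not pass the test (0.51 ± 0.18, adjusted p = 0.0654).

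Of 12 tested crosslinking and maturation enzymes 9 rose and none fell in obese tumors (median 1.22), 3 rose and 2 fell in lean tumors (median 0.03), and 5 were called for the difference. Tgm2, a transglutaminase that crosslinks matrix proteins, fell by 3.61 ± 0.61 in lean tumors (adjusted p = 0.000352) and rose by 2.66 ± 0.59 in obese tumors (adjusted p = 0.00280), with a difference of -6.28 ± 0.85 (adjusted p = 0.000182). Loxl1 rose in obese tumors (2.66 ± 0.91, adjusted p = 0.0305), with a difference between hosts of -3.66 ± 1.25 that did not pass the test (adjusted p = 0.0582). P4ha3, a prolyl hydroxylase subunit, fell in lean tumors (-1.75 ± 0.64, adjusted p = 0.0381), rose in obese ones (1.90 ± 0.62, adjusted p = 0.0251) and differed between hosts (-3.65 ± 0.90, adjusted p = 0.0118). Pcolce, which enhances procollagen processing, rose in both hosts, by 1.11 ± 0.14 in lean (adjusted p = 4.77e-05) and 1.40 ± 0.15 in obese mice (adjusted p = 2.06e-05), with a difference of -0.30 ± 0.20 (adjusted p = 0.347). So did the lysyl hydroxylase Plod1, by 0.96 ± 0.14 in lean (adjusted p = 9.77e-05) and 1.04 ± 0.14 in obese mice (adjusted p = 8.31e-05), with a difference of -0.08 ± 0.19 (adjusted p = 0.832). Of 14 matrix proteins 12 rose in obese tumors (median 1.15), 1 rose and 5 fell in lean tumors (median -0.58), and 11 were called for the difference. Col3a1 fell by 2.53 ± 0.88 in lean tumors (adjusted p = 0.0299) and rose by 3.14 ± 0.90 in obese tumors (adjusted p = 0.0130), with a difference of -5.67 ± 1.26 (adjusted p = 0.00638). Fbn1, fibrillin-1, fell by 2.46 ± 0.65 (adjusted p = 0.00703) and rose by 2.92 ± 0.66 (adjusted p = 0.00317), with a difference of -5.38 ± 0.93 (adjusted p = 0.00112), and Sparc, a collagen-binding protein, rose in lean (0.73 ± 0.25, adjusted p = 0.0256) and obese mice (1.14 ± 0.25, adjusted p = 0.00243), with a difference of -0.41 ± 0.35 (adjusted p = 0.456).

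The alternatives were run for a related gene only in the comparisons where it was among the largest changes of its list. Other calls given for these genes, such as Adamts2 in lean tumors and P4ha3 in obese tumors, were not checked in this way. Several of the calls that were checked depended on 1 tumor. In lean tumors they were lost for Mmp19 without B6_ctrl 1 or B6_ETS 3 or 4 (adjusted p from 0.0550 to 0.0858), Mmp11 without B6_ctrl 2, 3 or 4 or B6_ETS 2 or 4 (0.0522 to 0.0792), Adam8 without B6_ctrl 1 or 4 (0.0501 to 0.0570) and F10 without B6_ETS 4 (0.0528). The same held in lean tumors for P4ha3 without B6_ctrl 1, 2 or 4 or B6_ETS 1, 3 or 4 (0.0517 to 0.0933), Col3a1 without B6_ctrl 1 or 2 or B6_ETS 1, 3 or 4 (0.0574 to 0.0850) and Sparc without B6_ctrl 2, 3 or 4 or B6_ETS 4 (0.0587 to 0.0736). In obese tumors calls were lost for Adam17 without ob_ob_ETS 1 or 2 (0.0505 to 0.0668), Loxl1 without ob_ob_ctrl 1, 3 or 4 or ob_ob_ETS 1 or 4 (0.0508 to 0.0823), F10 without ob_ob_ctrl 1 or 3 or ob_ob_ETS 4 (0.0827 to 0.609) and Col3a1 without ob_ob_ETS 4 (1.90, adjusted p = 0.0602). On log2(TPM + 1) the lean calls of Mmp11 (0.35, adjusted p = 0.273), Reck (0.16, adjusted p = 0.454) and Sparc (0.41, adjusted p = 0.1798) were lost by limma. With no filter the lean call of P4ha3 was lost (-1.77, edgeR quasi-likelihood test, adjusted p = 0.0614). The obese F10 call was also lost with all tumors kept, with no filter (adjusted p = 0.0553), by limma-voom with sample weights (0.85, adjusted p = 0.355), by limma on log2(TPM + 1) (0.71, adjusted p = 0.201) and with only the groups compared (adjusted p = 0.102).

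**Figure D5:**
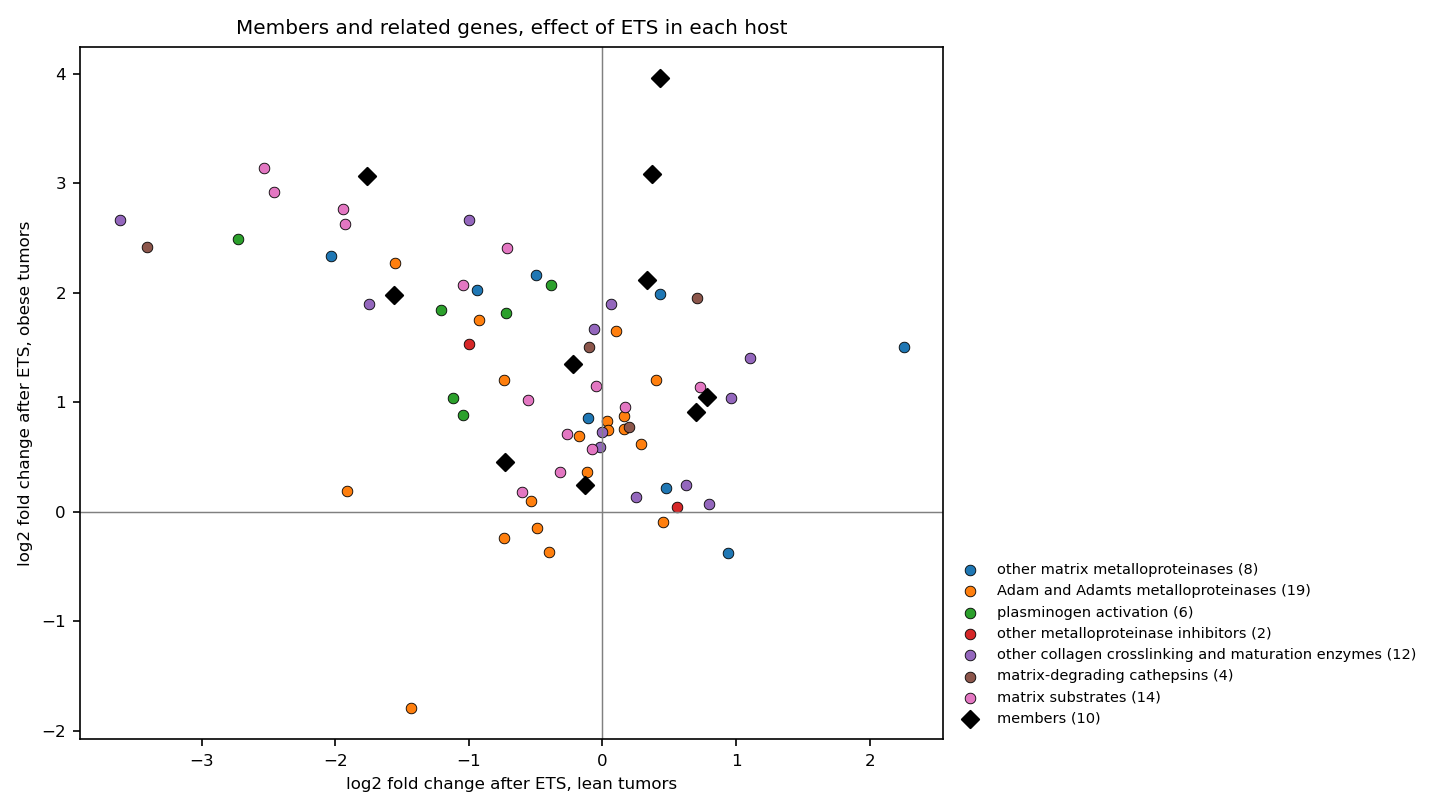
Log2 fold change after ETS in lean tumors (horizontal axis) against that in obese tumors (vertical axis), 1 point per tested gene, for the 10 genes (black diamonds) and 7 lists of related genes in colour. Most points lie above the horizontal line at 0, and Tgm2 (-3.61, 2.66) and Ctss (-3.40, 2.42) stand at the upper left.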

How the data were processed

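RNA of 16 whole tumors was sequenced after preparation with a stranded mRNA kit. Per the labels and the study's methods, the authors demultiplexed reads with bcl2fastq 2.20.0, trimmed them with Trimmomatic, aligned them to mm10 with HISAT2 2.1.0 and quantified genes with StringTie 2.1.3b. How strand was used in counting is not given in the sources used here. The authors deposited raw read counts and TPM values per gene and tumor, and 16 columns of FPKM were not used here.

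The members and the gene lists were chosen with earlier results of these data known. As in the study's methods, 29568 of 45777 genes were dropped because at least 1 tumor had no read of them. Counts of the other 16209 were scaled by TMM and tested with edgeR 4.0.16 (quasi-likelihood, 1 mean per group over all 16 tumors, in R 4.3.3), with Benjamini-Hochberg adjusted p under 0.05 as the threshold. A positive log2 fold change is higher after ETS, or higher in obese tumors. CPM are TMM-scaled counts per 1000000, with a prior count of 2 where logarithms were taken. TPM served to compare genes, and log2(TPM + 1) was tested with limma 3.58.1 as an alternative.

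The other alternatives were DESeq2 size factors, no filter, filterByExpr, the edgeR exact test on counts + 1, DESeq2 1.42.0, limma-voom with sample weights, only the groups compared, a replicate block and each tumor left out in turn. Adding Gm21451 to Loxl2 was chosen after seeing the data. All 10 members are named, and of each related list at most 2 genes with the largest change in each direction among those called in each ETS comparison and their difference, leaving out means under 1 CPM, and per member the 3 genes of highest Pearson r. Correlations used 100000 permutations within groups (scipy 1.17.1, Python 3.11.15). On simulated counts for the lean comparison (15907 genes) the quasi-likelihood test recovered 152 of 192 genes changed by 1.5 on the log2 scale with 8 false calls. False calls there were 32 of 193 by the edgeR exact test, 46 of 208 by DESeq2 and 13 of 166 by limma-voom. DESeq2 also made 5 calls in the obese comparison, where no gene was changed. For the difference between hosts the quasi-likelihood test recovered 119 of 192 genes with 9 false calls. Tumors of a group correlated at 0.970 to 0.992, and no pair agreed within sampling noise. The depth of 47199949 to 61655287 counts gives every member counts above 0 in each tumor.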

Additional observations from a re-analysis of the deposited data

Results flagged for a closer look

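The effect of ETS differed between hosts for 4 of the 10 genes by the test of the difference itself (edgeR quasi-likelihood, lean effect minus obese effect on the log2 scale). The values were -2.71 for Mmp2, -1.78 for Timp1, -1.19 for Timp3 and -4.83 for Lox. This difference was called for 16.4% of all tested genes. With a tumor left out the count ranged from 2 to 5 of the 10 genes. The Timp1 call was lost without any 1 of 10 tumors, and the Lox call without any 1 of 5. Among the related genes named, the same test gave -4.37 for Mmp19, -2.96 for Mmp23, -3.82 for Adam8, -2.67 for Adamts2, -5.21 for F10 and -3.05 for Plau. It gave -6.28 for Tgm2, -3.65 for P4ha3, -5.82 for Ctss, -1.61 for Ctsb, -5.67 for Col3a1 and -5.38 for Fbn1. Fibroblast and macrophage markers differed between hosts in the same direction, and their part in these values was not tested.

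Mmp14 in tumor 2 of B6_ETS, at 170.1 CPM, lay far below the other 3 tumors of its group by Dixon's criterion. It was the only such value in 40 sets of 4 tumors. Chance gives such a value in about 1 of 20 sets, so 1 in 40 sets is no more than chance gives.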

How the results depend on the processing

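No value changed sign while called. Of 480 values of the 10 genes under alternatives that kept all tumors, 433 stayed on the same side of the threshold, 36 gained a call and 11 lost it, and of 800 values with a tumor left out these numbers were 751, 19 and 30. For the named related genes, each only in the comparisons that selected it, 387 of 396 and 635 of 672 stayed. With a tumor left out, the count of the 10 genes called ranged from 2 to 3 for the lean effect, 3 to 9 for the obese effect and 2 to 5 for their difference, and between hosts from 0 to 2 before therapy and 0 to 2 after ETS. The protease-to-inhibitor ratio ranged from 0.749 to 0.894 in B6_ctrl, 0.534 to 0.585 in B6_ETS, 0.895 to 0.972 in ob_ob_ctrl and 0.643 to 0.718 in ob_ob_ETS. Limma-voom with sample weights called 6 genes for the lean effect, and between hosts 2 before therapy and 1 after ETS. Of all 16209 tested genes it called 8657, 5838 and 963 in these comparisons. Before therapy no filter gave 0 genes, the exact test gave 2 (Mmp2 and Timp1) and only the groups compared gave 2 (Timp1 and Timp3), and the 2 of limma-voom were Loxl2 and Mmp13. After ETS the count was 1 with DESeq2 size factors, 4 with the exact test, 4 with DESeq2 and 2 on log2(TPM + 1). With summed CPM in place of TPM the ratio was 1.03 in B6_ctrl, 0.725 in B6_ETS, 1.14 in ob_ob_ctrl and 0.918 in ob_ob_ETS. The causes were not tested.

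Deviations of same-numbered tumors from their group means correlated weakly, with mean r from 0.084 to 0.205 for the 4 numbers. The lowest r lay between -0.11 and -0.05 and the highest between 0.29 and 0.45. Of 16 tumors 5 correlated best with a tumor of their own number. The labels do not say what the number stands for, and whether it marks a shared factor was not tested. With the replicate block 2 genes (Mmp9 and Loxl2) were called between hosts after ETS, and Lox in obese tumors was 2.69 (edgeR, adjusted p = 0.0548). The block also ended the calls of Mmp2 before therapy (-1.44, adjusted p = 0.0679) and of F10 in obese tumors (2.03, adjusted p = 0.0806). It called Mmp9 in obese tumors (1.71, adjusted p = 0.0347) and for the difference between hosts (-3.27, adjusted p = 0.0208), and Loxl2 in lean tumors (0.86, adjusted p = 0.0108) and before therapy (0.77, adjusted p = 0.0282).

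On log2(TPM + 1) the median shift of all genes was -0.35 in lean tumors, -0.26 for the difference between hosts, -0.13 before therapy and 0.13 after ETS. The share of calls that were higher went from 48.0% to 15.7% in lean tumors, from 38.7% to 9.24% for the difference, from 51.0% to 29.0% before therapy and from 58.7% to 83.8% after ETS. Mmp9 and Mmp13 had the lowest mean TPM of the 10 genes, so depth limits them most. Mmp3 was scarce too in some tumors, with 14 reads in B6_ctrl 3, 13 in B6_ETS 3 and 19 in each of ob_ob_ctrl 1 and 4. Loxl2 may share reads with Gm21451, and adding those counts left the number of genes called at 2, 6, 4, 1 and 0 in the 5 comparisons.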
